A study of Homo sapiens with 12 samples.

Results

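The response of the myeloma line INA-6 to stromal cells was examined in 4 of the 12 arrays of a study of 3 human multiple myeloma lines, MM.1S, MM.1R and INA-6. The 4 arrays were taken by their titles. The first 2 hold INA-6 cells cultured alone, and the other 2 hold INA-6 cells cultured for 24 hours with HS-5, a stromal line made from human bone marrow. The cells carried green fluorescent protein as a stable label, and the GFP-positive myeloma cells were sorted away from the unlabelled stromal cells before RNA was taken. INA-6 is a plasma cell line that needs interleukin 6 to grow, and MM.1R is a glucocorticoid-resistant derivative of MM.1S. RNA was hybridised to Affymetrix U133 Plus 2.0 arrays, which read each gene by 1 or more probe sets near its 3′ end. Each group has 2 arrays that the study calls technical replicates, so every p-value below measures only the spread between duplicate arrays and not that between cultures. No drug or genetic change separates the groups, and arrays of HS-5 cells by themselves were not used here.

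Myeloma cells live in the bone marrow beside stromal cells, which feed them through secreted cytokines and through direct contact. Interleukin 6 acts through the receptor chains IL6R and IL6ST, the JAK kinases and the transcription factor STAT3, whose targets include SOCS3, PIM1 and MCL1. Plasma cells also depend on a large secretory apparatus, in which chaperones of the endoplasmic reticulum (ER) fold immunoglobulin.

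Marker genes separated the lines on the probe sets picked for them. On the probe set of IGKC, the kappa light chain, with the highest values in INA-6, all 4 INA-6 arrays read between 3381 and 3622, and all 8 MM.1S and MM.1R arrays between 1 and 16.3. The high level in INA-6 follows from this choice, and the levels on other IGKC probe sets are not given here. The transcription factor MAF, which is switched on in MM.1 cells, read 7.52 to 28.2 in INA-6 and 2856 to 5025 in the other lines on its brightest probe set. Of 7 plasma cell markers, all lay above the array median in all 4 arrays, and their summed level was 14022 and 13434 alone and 13790 and 14091 after coculture.

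The INA-6 groups differed in duplicate agreement and in the array controls. Cells alone gave duplicates with a correlation of 0.84 over genes and 5914 of 15053 genes more than 2-fold apart, while those after coculture correlated at 0.99 with 458 such genes (genes are not independent replicates). The other 4 groups had 524 to 1960 such genes. For beta-actin, ACTB, control probe sets at both transcript ends gave a ratio of 3′ over 5′ signal, which rises when transcripts are shortened, of 5.72 and 5.31 alone and 32.4 and 31.7 after coculture. In MM.1S and MM.1R this ratio went the other way, from 22.4 and 31.4 alone to 5.10 and 5.21. BioB, a hybridisation control spiked in at a set dose, read 3934 and 3534 in INA-6 alone and 831 and 838 after coculture. The 75th percentile of the array was 73.4 and 69.8 alone and 116 and 121 after coculture. These differences accompany every comparison below, and their part in the results was not tested.

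**Figure D1:**
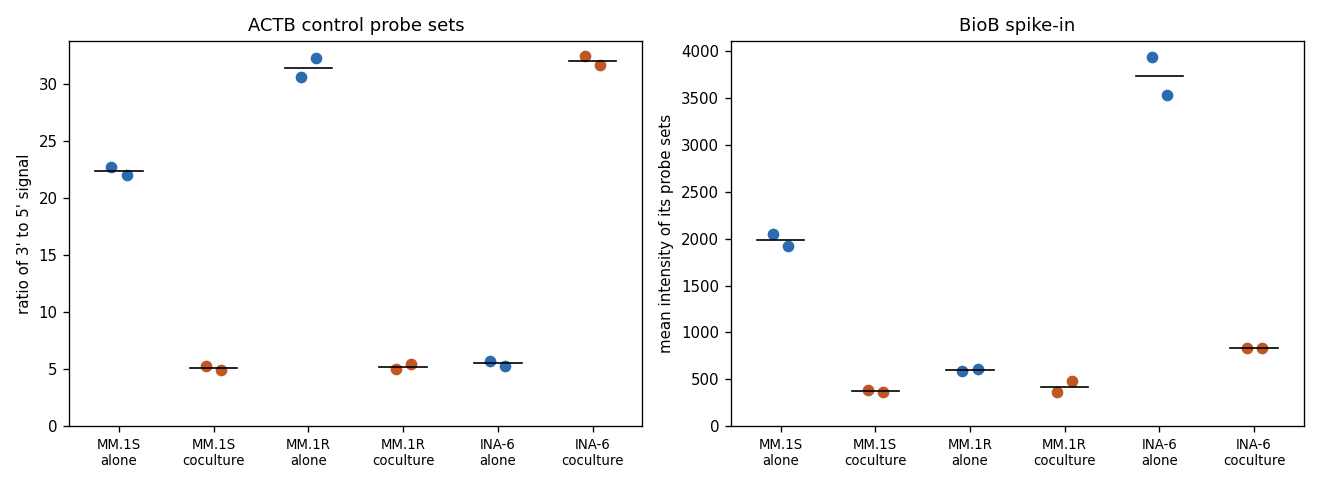
ACTB 3′ signal divided by 5′ signal (left) and mean intensity of the BioB spike-in probe sets (right) in each of the 12 arrays, blue for cells alone and orange for coculture, with the group mean as a line. The ACTB ratio was 5.51 in INA-6 alone and 32.0 after coculture, opposite in direction to the other lines, and BioB was highest in INA-6 alone.

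The INA-6 arrays after coculture resembled the cocultured arrays of the other lines more than their own line alone. Across genes they correlated at 0.88 to 0.90 with MM.1S and MM.1R after coculture, at 0.79 to 0.80 with replicate 1 of INA-6 alone and at 0.66 with replicate 2. The resemblance was not limited to cocultured arrays, since they also correlated at 0.78 to 0.84 with MM.1S and MM.1R cultured alone. The arrays of INA-6 alone correlated with MM.1S and MM.1R cultured alone at 0.62 to 0.75. In MM.1S and MM.1R, by comparison, cells alone and cocultured cells of the same line correlated at 0.83 to 0.91.

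Expression changes were tested on log2 values with limma, with the groups weighted by the spread of their own duplicates and Benjamini-Hochberg adjustment over all 15053 genes. After coculture 3388 genes rose in INA-6 (22.5% of those tested) and 438 fell (2.91%). Of these, 3349 rises and 423 falls were at least 2-fold. The groups did not overlap at any of these genes, as at 10865 genes (72.2%) in all. The median of all genes was 0.47 higher after coculture on the log2 scale. Rises made up 88.6% of the calls, against 76.1% after quantile normalization (1985 rises and 622 falls) and 61.6% with the arrays scaled to a common 75th percentile (1619 and 1009). With replicate 1 of INA-6 alone left out 7448 genes rose and 3237 fell, and with replicate 2 left out 6471 rose and 2464 fell, since the remaining array is then taken to vary like the other groups. In all, 900 rises and 88 falls passed under each of the 15 alternative settings, which changed the weights, the arrays fitted, the constant, the scaling, the filter, the summary of probe sets or a block for replicate numbers, or left out 1 INA-6 array. Where a gene named below lost its call under any of them, this is given with the gene.

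Counts of rises differed with the mean level of the genes. With the genes ranked by their mean level in the 4 INA-6 arrays and cut into 4 equal bins, 85 rose and 24 fell in the lowest bin. This mean includes the cocultured arrays. A large rise therefore moves a gene to a higher bin, and the bins do not show how often genes that were dim alone rose. In the third bin, which starts at a mean of 109, 1630 rose and 70 fell, and in the highest bin 1004 rose and 308 fell. Below the array median in both arrays alone lay 1559 of the genes tested, and 413 of them were among the 3388 rises (22.5% of all genes rose). The filter kept such a gene only where its probe set lay above the median in other arrays, which can be the cocultured ones. This can favour genes that rose, so the counts do not show whether dim genes rose more often than others. In these genes the size of a rise depends on the constant of 5 added before taking logs.

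The largest rises were genes of extracellular matrix, matrix turnover and secreted proteins. TFPI2, a protease inhibitor deposited in matrix, read 8.66 and 13.8 alone and 3314 and 3383 after coculture, a log2 change of 7.71 ± 0.94 (SE, limma adjusted p = 0.00205). MMP1, a collagenase, read 20.9 and 37.1 alone and 6032 and 5865 after coculture (7.49 ± 0.30, adjusted p = 7.21e-05). In both genes the arrays alone were near the bottom of the scale and the cocultured arrays far above them. The collagen VI chains COL6A2 and COL6A1 rose by 6.45 and 5.97, the secreted glycoprotein STC1 by 6.01, the surface protein TMEM158 by 5.91 and the matrix protein TGFBI by 5.86. PLOD2, a lysyl hydroxylase that modifies collagen, read 7.87 and 19.6 alone and 946 and 901 after coculture (5.71 ± 0.35, adjusted p = 0.000608), and MIR210HG, the host transcript of a hypoxia-induced microRNA, read 17.2 and 1 alone and 554 and 548 after coculture (5.59 ± 0.76). In all of these genes the cocultured duplicates lay close together and far above both arrays alone. Other probe sets also passed with a rise for TFPI2 (5.46), COL6A2 (1.94), PLOD2 (4.49) and both others of STC1 (3.42 to 4.92), while those of COL6A1 ran from -1.12 to 2.39.

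Some of the leading rises were larger in INA-6 than in the other lines. ARRDC3, an arrestin family protein, read 15.4 and 1 alone and 556 and 639 after coculture (5.76 ± 0.50, adjusted p = 0.00106), with changes of 0.708 in MM.1S and 0.997 in MM.1R. RGS1, a brake on chemokine receptor signalling in B cells, read 9.69 and 7.28 alone and 547 and 561 after coculture (5.38 ± 0.31), against changes of 1.03 and 1.34. For both genes the INA-6 change exceeded the mean of the other lines, by 4.91 ± 0.51 (adjusted p = 0.00221) and 4.20 ± 0.32 (adjusted p = 0.00167). The other lines expressed them already alone, at 331 to 416 for ARRDC3 and 1557 to 1859 for RGS1, and in INA-6 alone the higher duplicate was at 15.4 and 9.69.

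**Figure D2:**
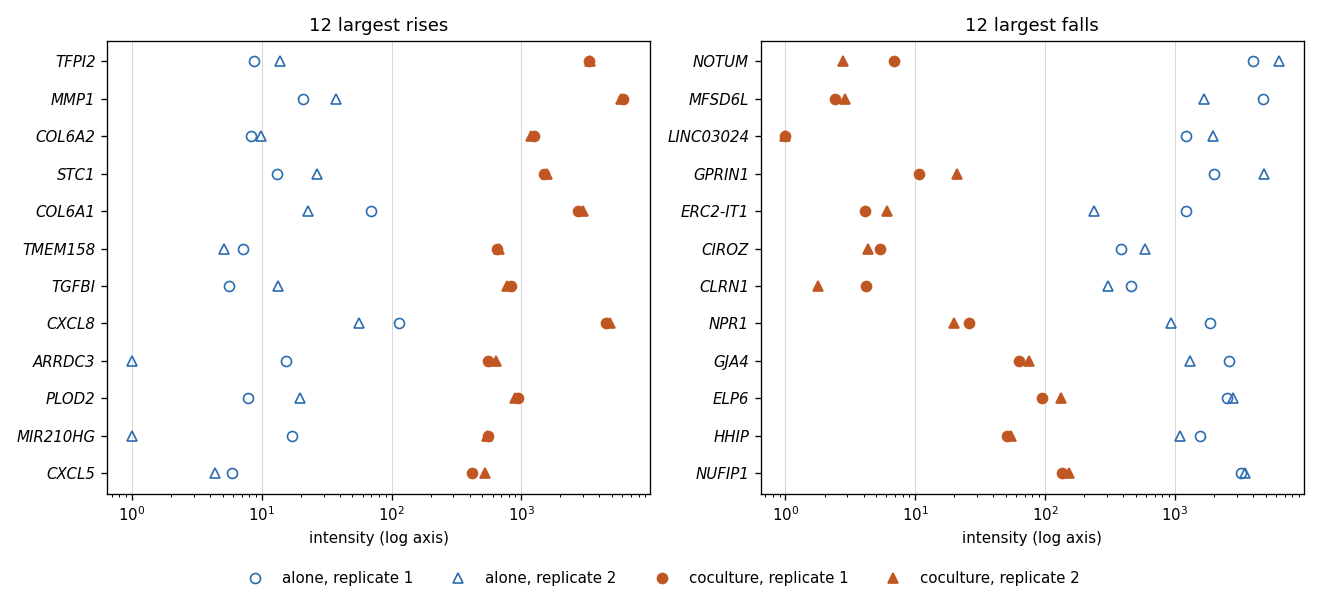
Intensity (log axis) of the 12 largest rises and 12 largest falls of INA-6 in each of its 4 arrays, open blue for cells alone and filled orange for coculture, with circles for replicate 1 and triangles for replicate 2. The groups are apart at all 24 genes, as the choice of these genes required. The cocultured duplicates of the rises nearly coincide, and ARRDC3 and MIR210HG stand at the floor of 1 in replicate 2 alone.

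The lists below were chosen from textbook knowledge with earlier results of these data known, and genes named from them beyond the fixed rule are examples picked after their values were seen. Cytokines that stromal cells such as HS-5 secrete were higher in INA-6 after coculture. Among 18 tested members 10 rose (22.5% of all genes did), 0 fell and 8 missed the threshold, with a median of 3.35, which is 2.88 above that of all genes. Among chemokines that draw neutrophils, CXCL8 read 114 and 56.4 alone and 4471 and 4832 after coculture (5.77 ± 0.36, adjusted p = 0.000618), and CXCL5 (5.56), CXCL2 (4.72) and CXCL3 (3.12) rose with it. IL6, the growth factor of these cells, read 35.6 and 101 alone and 1621 and 1575 after coculture (4.61 ± 0.94, adjusted p = 0.0109). The other interleukins IL1A (4.60), IL1B (4.46), IL11 (3.38) and IL24 (3.32) rose too, as did CSF3, the neutrophil growth factor, from 4.54 and 4.63 to 270.2 and 292. LIF, a ligand of the interleukin 6 family, stood at 3.87 without passing, and the chemokine CCL2 at -0.12, with 8.35 and 17.5 alone and 6.79 and 16.6 after coculture. Compared with the mean of the other lines, the change was lower in INA-6 for 3 of the 18 members (against 5.19% of all genes), which were CXCL8 (-2.03), CSF3 (-1.62) and CXCL3 (-1.47). The count of lower differences was 1 with the replicate block and 13 without group weights (339 and 2145 of all 15053 genes). Under alternative settings the call was lost for IL11 with probe sets averaged. The difference from the other lines was lost for CXCL8 and CSF3 with the replicate block, and for CXCL3 (6 settings, among them with either cocultured array left out).

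Markers of stromal cells rose in the same arrays. Among 42 tested members 19 rose, against 22.5% of all genes, 0 fell and 23 missed the threshold, with a median of 1.46, 0.99 above that of all genes. That median ran from 0.77 with scaling to the 75th percentile to 2.86 with the stricter filter over the settings. Fibronectin FN1 read 15.3 and 35.1 alone and 1126 and 1108 after coculture (5.30 ± 0.59, adjusted p = 0.00165), with 3 other probe sets passing the same way. The collagen chains COL6A3 and COL1A2, the ectoenzyme NT5E, the matrix proteases MMP3 and MMP2 and the collagen crosslinking enzyme LOX rose by 5.23, 4.69, 5.03, 4.95, 4.05 and 3.99. The summed level of a shorter set of 19 stromal markers, each read on its probe set with the highest mean intensity, was 1510 and 1056 alone and 20847 and 20852 after coculture. This choice can favour probe sets that are bright after coculture, as for COL1A1 below. The set also holds TFPI2, MMP1 and TGFBI, which are among the largest rises, so the sum is no independent support for a rise. Above the array median in both duplicates were 7 of the 19 markers alone and 17 after coculture. The set's members PDGFRB and CCN2 stayed below the median in all 4 arrays, with PDGFRB at 15.5 and 8.29 alone and 20.3 and 14.1 after coculture. The contractile genes ACTA2 and TAGLN stood at -0.29 and -1.29, and neither passed. Not every call held, since it was lost for MMP2 with probe sets averaged. The part of RNA from HS-5 cells in this and the other rises was not tested, and in sorted bulk samples more cells of a type cannot be told apart from more RNA per cell.

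Probe sets of some stromal genes differed. COL1A1 read 441 and 1817 alone and 262 and 261 after coculture on the probe set that stands for it, the one with the highest mean log2 value (-1.76, not passing). Of its 4 other tested probe sets 3 passed as rises, and they ran from -1.79 to 6.08. On the one with the highest of these changes it read 14.5 and 10.1 alone and 1216 and 1106 after coculture. TAGLN and CCN1 likewise stood at -1.29 and -1.35, with another probe set at 2.32 and 2.98. With the probe sets of a gene averaged, the change was 2.14 for COL1A1, 0.51 for TAGLN and 0.81 for CCN1.

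TIMP1, an inhibitor of matrix proteases, did not pass in INA-6, where it was already high, at 1223 and 1345 alone and 1595 and 1562 after coculture (0.30 ± 0.39). In MM.1S it read 30.1 and 23.1 alone and 1039.9 and 1063 after coculture, and in MM.1R 12.7 and 17.1 alone and 2980.3 and 2813 after coculture. The change in INA-6 was below the mean of the other lines by 5.83 on the log2 scale (adjusted p = 0.00167). The calcium-binding protein S100A6, which rose in INA-6 by 3.40, rose by 6.48 and 7.30 in the other lines (difference -3.50 ± 0.95, adjusted p = 0.0376). The rise of S100A6 was lost under 6 settings and its difference from the other lines under 5, in both cases with either cocultured array left out among them.

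Genes of hypoxia and glycolysis rose together. Among 33 tested members 21 rose (22.5% of all genes did), 0 fell and 12 missed the threshold, with a median of 2.003, 1.53 above that of all genes. The median ran from 1.31 with scaling to the 75th percentile to 2.48 without replicate 1 of INA-6 alone. Among regulators that hypoxia induces, NDRG1 read 91.6 and 92.2 alone and 2059.5 and 1974 after coculture (4.38 ± 0.36, adjusted p = 0.00101) and ANKRD37 36.5 and 56.4 alone and 771 and 773 after coculture (3.94 ± 0.28, adjusted p = 0.000691). In both genes the groups did not overlap, as at every call. The histone demethylase KDM3A (4.06), the angiogenic factor VEGFA (3.60), the mitophagy receptor BNIP3L (3.20) and the collagen prolyl hydroxylases P4HA2 (3.21) and P4HA1 (2.12) rose. In glycolysis, the regulators PFKFB4 (4.33) and PFKFB3, the hexokinases HK1 and HK2 (3.04 and 2.28), the pyruvate kinase PKM (3.67) and PDK1, which inhibits pyruvate dehydrogenase (3.58), rose. The abundant enzymes PGK1, GAPDH and LDHA stood at 0.54, 0.50 and 0.11 without passing, and LDHA was at 4789 and 5124 alone. The other probe sets of VEGFA ran from -2.52 to 1.51. Against the mean of the other lines, the rise was larger in INA-6 for 7 of the 33 members (15.6% of all genes) and smaller for LDHA. The count of larger rises was 3 with the replicate block and 9 without group weights (1243 and 3749 of all 15053 genes). In MM.1S 27 of the 33 members rose, where 33.0% of all genes did, and in MM.1R 30, where 27.6% did. The alternatives ended the call of VEGFA with probe sets averaged.

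The promoter of ANKRD37 is shown because it holds 3 matches to ACGTG, the core of the site that hypoxia-inducible factors bind. It is the window from 250 bases before to 50 bases after the RefSeq start of the gene (GRCh38.p14, chr4:185396591-185396890, plus strand), and the capitals mark the matches on either strand, with CACGTG counted on both.
ANKRD37: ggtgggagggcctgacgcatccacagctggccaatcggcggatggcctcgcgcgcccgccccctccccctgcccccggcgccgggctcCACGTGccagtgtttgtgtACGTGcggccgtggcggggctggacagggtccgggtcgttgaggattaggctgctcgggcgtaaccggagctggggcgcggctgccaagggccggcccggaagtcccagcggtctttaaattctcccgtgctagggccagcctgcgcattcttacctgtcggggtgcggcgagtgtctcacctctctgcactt
The motif occurred in 13 of 30 members of the list with a promoter in the table (43.3%) and in 21.4% of all 35116 promoter windows. The windows of PFKFB4 and KDM3A, which were searched for the same motif, held 0 matches. A match is a description of the sequence and not of binding.

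Interferon-stimulated genes were higher in part. Among 40 tested members 14 rose (22.5% of all genes did), 1 fell (2.91%) and 25 missed the threshold, with a median of 1.01, 0.54 above that of all genes. The count of rises was 10 with scaling to the 75th percentile and 23 without group weights, where 1619 and 5882 of all 15053 genes rose. The median ran from 0.32 with scaling to the 75th percentile to 1.40 with the stricter filter. IRF7, the transcription factor that amplifies interferon production, read 10.1 and 26.2 alone and 595 and 608 after coculture (4.81 ± 0.47, adjusted p = 0.00124). ISG15, a ubiquitin-like modifier, read 22.4 and 12.2 alone and 457 and 452 after coculture (4.40 ± 0.32, adjusted p = 0.000699). In both genes the lower cocultured array lay far above the higher array alone. The antiviral genes GBP2 (3.71), IFI6 (3.46), IFIT2 (3.46), MX1 (3.09) and EIF2AK2 (2.78) rose, and the transcription factor IRF1 by 1.82. PARP9 fell, from 258 and 554 to 90.8 and 92.8 (-1.99 ± 0.37, adjusted p = 0.00784), while its other probe set stood at 1.76. The surface protein BST2 was at 1912 and 1550.2 alone and 1802 and 1734 after coculture and did not pass (0.04), with changes of 2.95 and 1.61 in the other lines. For BST2, IFITM1, IFITM2, IFITM3, RSAD2 and PARP9 the change in INA-6 was lower than the mean of the other lines, from -3.71 for IFITM3 to -2.15 for RSAD2, and for IRF7, EIF2AK2, HERC5 and IFIH1 it was higher, from 1.42 to 3.17. Of the calls named, some settings ended those of MX1 in the fit of the INA-6 arrays by themselves, of EIF2AK2 with probe sets averaged, and of IRF1 (3 settings) and PARP9 (2 settings). The difference from the other lines was lost for IFITM1 and HERC5 with the replicate block, for IFIH1 with probe sets averaged, and for IFITM3 (5 settings, among them with either cocultured array left out), RSAD2 (5 settings, among them with either cocultured array left out) and EIF2AK2 (2 settings). The average over the probe sets of EIF2AK2 turned the sign of its difference.

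The ISG15 promoter is shown because it holds a pair of overlapping copies of the core of the interferon-stimulated response element, 2 GAAA blocks with 2 free bases between them (GRCh38.p14, chr1:1013247-1013546, plus strand, the same window as above, capitals for the matches).
ISG15: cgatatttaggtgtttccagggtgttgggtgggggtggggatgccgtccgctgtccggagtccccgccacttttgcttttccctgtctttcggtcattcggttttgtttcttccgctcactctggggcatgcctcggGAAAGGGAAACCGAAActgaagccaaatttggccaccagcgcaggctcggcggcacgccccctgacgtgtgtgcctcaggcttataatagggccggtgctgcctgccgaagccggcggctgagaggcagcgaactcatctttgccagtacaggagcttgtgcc
The element occurred in 20 of the 31 list members with a promoter (64.5%) and in 3.57% of all windows.

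Components of the NF-kB pathway rose in part. Among 26 tested members 10 rose (22.5% of all genes did), 0 fell and 16 missed the threshold, with a median of 0.70, 0.23 above that of all genes. The median ran from 0.014 with scaling to the 75th percentile to 1.34 with the stricter filter. The count of rises was 7 with that scaling and 14 without group weights, where 1619 and 5882 of all 15053 genes rose. The chemokine CCL20 read 30.8 and 8.56 alone and 673 and 689 after coculture (4.96 ± 0.55, adjusted p = 0.00158), and IER3, an early response gene, 57.1 and 130.0 alone and 2005 and 1970.5 after coculture (4.44 ± 0.35). Among the subunits, NFKB2, the precursor of p52, read 5.88 and 4.04 alone and 204 and 214 after coculture (4.43 ± 0.30, adjusted p = 0.000646), with its other probe set at 0.58, and RELA rose by 2.32. NFKB1, the precursor of p50, read 226 and 405 alone and 34.3 and 30.6 after coculture and missed the threshold (-3.04 ± 0.97, adjusted p = 0.0550), while it stood at 1.25 and 1.48 in the other lines. NFKBIZ rose by 3.99. Of the inhibitors, NFKBIE (2.25), TNFAIP3 (1.92) and TRAF3 (1.99) rose, and NFKBIA stood at 0.60. The adhesion molecule ICAM1, a known target, was at 591 and 335 alone and 342 and 369.7 after coculture and at 2.42 and 3.11 in the other lines (difference -3.09 ± 0.46, adjusted p = 0.00490). Under alternative settings the call was lost for RELA with probe sets averaged, for NFKBIE with scaling to the 75th percentile, and for TNFAIP3 in the fit of the INA-6 arrays by themselves.

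The interleukin 6 pathway showed a mixed picture. Among 22 tested members 9 rose (22.5% of all genes did), 1 fell (2.91%) and 12 missed the threshold, with a median of 1.24, 0.77 above that of all genes. With probe sets averaged the median was 0.15 above that of all genes, at 0.55. The block gave 6 rises and 0 falls, where 2244 of all 15053 genes rose and 364 fell. Without group weights 14 members rose and 1 fell (5882 and 1978 of all genes). Of the receptors, OSMR, which binds oncostatin M, rose by 2.96, and IL6R and IL6ST stood at -0.23 and 0.66. Of the signalling proteins, the kinase TYK2 read 100.5 and 68.4 alone and 501 and 481 after coculture (2.49 ± 0.40, adjusted p = 0.00454), and STAT3 and JAK1 stood at 1.09 and 1.08 without passing. Of the targets, the kinase PIM1 read 38.6 and 17.2 alone and 358 and 351 after coculture (3.53 ± 0.81, adjusted p = 0.0168), and CEBPD (3.28), CEBPB (2.50), PIM3 (1.34), MCL1 (1.34) and BCL2L1 (2.61) rose. The feedback inhibitor SOCS3 read 167 and 40.3 alone and 423 and 409 after coculture and did not pass (2.25 ± 0.79, adjusted p = 0.0742). Its duplicates alone lay apart from each other and below both cocultured arrays. Its change was below the mean of the other lines, which stood at 7.57 and 7.38 (difference -5.22 ± 0.81, adjusted p = 0.00563). SOCS2 fell, from 154 and 242 to 52.4 and 53.4 (-1.78 ± 0.46, adjusted p = 0.0255). Not every call held, since it was lost for OSMR and BCL2L1 with probe sets averaged, for PIM1 and SOCS2 with the replicate block, and for PIM3 (3 settings) and MCL1 (2 settings). The difference from the other lines was lost for SOCS3 with the replicate block.

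Metallothioneins, small proteins that bind zinc and copper, rose nearly as a family. The list holds 9 tested members, among them their regulator MTF1 and the zinc exporter SLC30A1. Of these, 7 rose (22.5% of all genes did), 0 fell and 2 did not pass, with a median of 3.35, 2.88 above that of all genes. MT2A read 544 and 458 alone and 7337 and 7251 after coculture (3.86 ± 0.25, adjusted p = 0.000636) and MT1G 117 and 94.6 alone and 2201 and 2458 after coculture (4.40 ± 0.51, adjusted p = 0.00185). The duplicates agreed closely in both groups of MT2A. MT1F (3.90), MT1H (3.60), MT1E (3.35), MT1X (3.04) and SLC30A1 (1.48) rose too, though near-identical family members can share probes and may not be told apart. MT3, the brain form, stood at -0.69 and MTF1 at 1.03. The rise of MT2A was smaller than in the other lines (5.88 and 6.21, difference -2.19 ± 0.26, adjusted p = 0.00267). The alternatives ended the call of SLC30A1 (5 settings).

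The promoter of MT2A is shown for the dense repeats of the metal response core TGCNCNC, searched for after the rise was seen (GRCh38.p14, chr16:56608334-56608633, plus strand, same window, capitals for the 8 matches on either strand).
MT2A: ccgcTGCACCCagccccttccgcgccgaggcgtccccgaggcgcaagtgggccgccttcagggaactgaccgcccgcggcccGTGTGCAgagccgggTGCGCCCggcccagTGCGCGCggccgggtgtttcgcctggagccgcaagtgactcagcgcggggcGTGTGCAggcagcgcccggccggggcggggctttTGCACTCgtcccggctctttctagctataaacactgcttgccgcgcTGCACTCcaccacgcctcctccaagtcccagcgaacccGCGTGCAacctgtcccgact
This core is common, in 55.9% of all windows and in all 6 members of the metallothionein list (which also holds MTF1 and SLC30A1) with a promoter in the table.

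Genes of the glucocorticoid response, with the receptor counted among them, rose in part in all 3 lines. Among 11 tested members 7 rose (22.5% of all genes did), 0 fell and 4 missed the threshold, with a median of 2.45, 1.98 above that of all genes. In MM.1S 9 of the 11 rose and in MM.1R 7, where 33.0% and 27.6% of all genes did, and 0 fell in either. The change was larger in INA-6 than the mean of the other lines for 2 members and smaller for 1 (15.6% and 5.19% of all genes). With probe sets averaged the median in INA-6 was 0.66, which is 0.27 above that of all genes, and 5 members rose (3182 of all 15053 genes did). The receptor NR3C1 read 81.2 and 86.1 alone and 476 and 481 after coculture (2.45 ± 0.29, adjusted p = 0.00189), and 3 of its 4 other probe sets passed in the same direction, at 1.77 to 3.61 for all 4. It stood at -0.04 and 0.09 in MM.1S and MM.1R (difference 2.42 ± 0.30, adjusted p = 0.00285). The leucine zipper protein TSC22D3 read 88.4 and 11.3 alone and 899.9 and 831 after coculture (4.48 ± 0.57), with another probe set at -1.32, and ERRFI1 (3.86), DDIT4 (3.75) and KLF9 (2.94) rose. FKBP5 and SGK1, also targets, stood at 0.59 and 0.04. Of the calls named, some settings ended those of KLF9 (4 settings, among them with cocultured replicate 1 left out).

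Immediate-early genes and stress chaperones rose in part. Of 28 immediate-early genes 16 rose (22.5% of all genes did), 0 fell and 12 missed the threshold, with a median of 1.95, 1.48 above that of all genes. The median ran from 1.26 with scaling to the 75th percentile to 2.42 with the stricter filter. The early response gene IER5 read 154 and 66.9 alone and 1499 and 1599 after coculture (3.86 ± 0.33, adjusted p = 0.00106), and the mRNA decay factor ZFP36 245 and 171 alone and 1828 and 2005 after coculture (3.20 ± 0.31, adjusted p = 0.00124). The MAP kinase phosphatases DUSP1 (4.03), DUSP2 (3.38), DUSP6 (2.44), DUSP5 (2.44) and DUSP4 (2.05) and the transcription factors ATF3 (3.08), JUND (2.98), JUN (2.51), KLF6 (2.60) and KLF10 (2.39) rose, although the other probe sets of DUSP1 stood at -2.74 and -0.74. EGR1 and NR4A1 stood at -1.21 and -1.81 without passing, with duplicates alone of 489 and 1015 and 67.2 and 521. Of 18 heat shock genes 6 rose (22.5% of all genes did) and 0 fell, with a median of 0.48 that turned negative (-0.21) with scaling to the 75th percentile. The co-chaperones BAG3 and DNAJB1 rose by 2.80 and 2.69, with DNAJB1 at 388 and 296 alone and 2245 and 2199 after coculture. HSPB1 and HSPA6 rose by 2.18 and 2.18, less than in the other lines (differences -2.94 and -2.58). Under alternative settings the call was lost for DUSP1 and ATF3 with probe sets averaged, for KLF10 in the fit of the INA-6 arrays by themselves, and for JUND (2 settings) and HSPB1 (7 settings, among them with either cocultured array left out). The difference from the other lines was lost for HSPB1 with the replicate block.

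Regulators of cell death rose on both sides, with few calls left when probe sets were averaged. Of 15 members of the BCL2 family 7 rose (22.5% of all genes did), 0 fell and 8 missed the threshold (median 1.37, 0.90 above all genes). The anti-apoptotic members were BCL2A1 (3.09), BCL2L2 (2.73), BCL2L1 (2.61), BCL2 (2.21) and MCL1 (1.34) and the pro-apoptotic ones BAX (3.16) and PMAIP1 (2.63). MCL1, on which myeloma cells depend, read 1416 and 1175 alone and 3284 and 3263 after coculture (adjusted p = 0.00842), and BCL2 218 and 98.3 alone and 693 and 707 after coculture (adjusted p = 0.00380), with other probe sets of BCL2 at -0.84 and -0.32. In the averages over probe sets 3 of the 15 rose, with a median of 0.66, where 3182 of all 15053 genes rose. That count is no excess over all genes. Of 15 genes of the death receptor pathway 8 rose and 1 fell, against 22.5% and 2.91% of all genes (median 1.54, 1.07 above all genes). The caspase CASP10 read 11.7 and 10.5 alone and 372 and 367 after coculture (4.54 ± 0.26, adjusted p = 0.000608), and the TRAIL receptor TNFRSF10B 21.2 and 11.7 alone and 205 and 210.4 after coculture (3.34 ± 0.32), though other probe sets of these genes ran from -2.30 to -0.24 and from -3.67 to 2.71. XIAP, a caspase inhibitor, rose by 2.90 with 3 other probe sets passing. The receptor FAS fell, from 637 and 744 to 102 and 80.1 (-2.86 ± 0.74, adjusted p = 0.0259). In the averages over probe sets 2 of the 15 rose and 0 fell, with a median of 0.69, where 3182 of all 15053 genes rose and 419 fell. Here too the rises are no excess over all genes. Not every call held, since it was lost for BCL2, BCL2L1, CASP10, TNFRSF10B, XIAP and FAS with probe sets averaged, and for BCL2L2 (5 settings, among them with cocultured replicate 2 left out) and MCL1 (2 settings).

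In the cell cycle list, inhibitors and drivers rose together. Among 37 tested members 15 rose (22.5% of all genes did), 2 fell (2.91%) and 20 missed the threshold (median 0.995, 0.53 above all genes). The inhibitor CDKN1A, which encodes p21, read 17.4 and 26.3 alone and 497 and 587 after coculture (4.36 ± 0.39, adjusted p = 0.00106), and CDKN1B, which encodes p27, read 69.9 and 56.0 alone and 643 and 626 after coculture (3.24 ± 0.33, adjusted p = 0.00139). Both rose by more than in MM.1S and MM.1R (differences 2.64 ± 0.40 and 2.95 ± 0.34, adjusted p = 0.00504 and 0.00258). E2F1 (2.81), BUB1 (2.60), CDK6 (2.29), CDC25A (2.25) and PLK1 (2.16), which drive replication and mitosis, rose as well. The replication licensing factor CDC6 fell from 3701 and 5225 to 410.1 and 407 (-3.41 ± 0.40, adjusted p = 0.00189) and the cyclin CCNA2 from 2469 and 2435 to 697 and 691 (-1.81 ± 0.42), with another probe set at 0.77 and -0.34. The proliferation marker MKI67 stood at 0.38. The count of rises was 7 in the fit of the 4 INA-6 arrays by themselves, where 2434 of all 15053 genes rose. It was 8 with the replicate block or with scaling to the 75th percentile (2244 and 1619 of all genes) and 10 after quantile normalization (1985). Without replicate 1 of INA-6 alone the list median was 0.98, which is 0.32 above that of all genes. The alternatives ended the call of BUB1 in the fit of the INA-6 arrays by themselves, of CDK6 with probe sets averaged, and of CDC25A (3 settings).

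**Figure D3:**
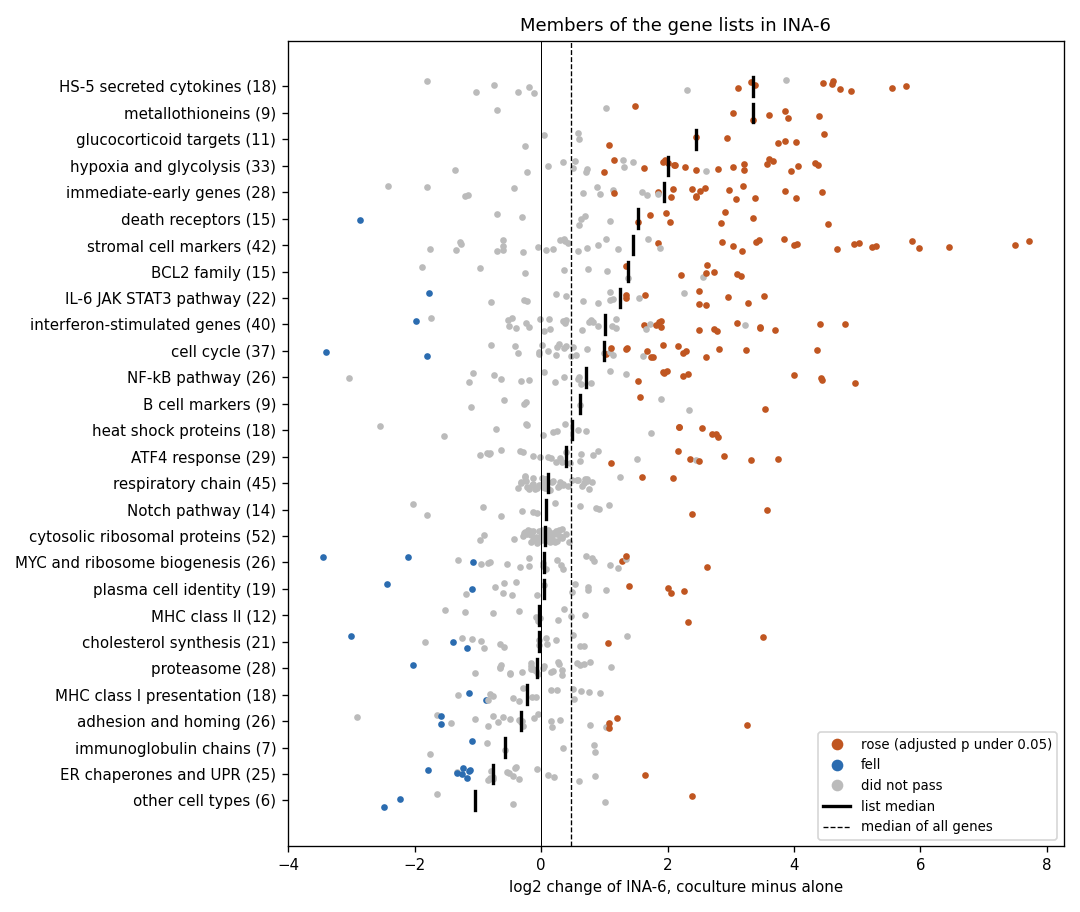
Log2 change of INA-6 (coculture minus alone) for each tested member of the 28 gene lists, with the number of members in parentheses, orange for rises and blue for falls past the test, grey for members that did not pass, a bar at the list median and a dashed line at the median of all genes (0.47). Cytokines and metallothioneins have the highest medians, and ER chaperones lie to the left of 0 with 7 falls.

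Some chaperones of the ER fell in INA-6, while most members of their list rose in the other lines. Of 25 members of the list of chaperones and the unfolded protein response, 7 fell (2.91% of all genes did), 1 rose and 17 did not pass, with a median of -0.76, which is 1.23 below that of all genes. In MM.1S 20 of the 25 rose, where 48.4% of all genes passed (33.0% higher and 15.4% lower), and in MM.1R 17, where 37.6% passed (27.6% higher and 9.97% lower). The medians of the list there were 1.05 and 0.63. The change in INA-6 was below the mean of the other lines for 16 of the 25 (5.19% of all genes) and above it for 0. The count of lower differences was 7 with the replicate block and 18 without group weights (339 and 2145 of all 15053 genes). The list median stayed below 0 under every setting tried, from -1.45 to -0.57.

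HSPA5, the main ER chaperone, read 7984 and 8454 alone and 3315 and 3181 after coculture in INA-6, a log2 change of -1.34 ± 0.27 (adjusted p = 0.0110). It changed by 0.93 in MM.1S and 1.44 in MM.1R, and the difference was -2.52 ± 0.28 (adjusted p = 0.00250). The duplicates of both INA-6 groups lay close together, and the groups did not overlap, as at every call. The co-chaperones DNAJB11 (-1.17) and SDF2L1 (-1.79), the disulfide isomerases PDIA3 (-1.14) and PDIA6 (-1.13) and SEL1L, a part of the degradation complex (-1.24), fell too. PDIA6 read 3897 and 4473 alone and 1865 and 1934 after coculture, and its 3 other probe sets fell with it, at -1.51 to -1.19. HSP90B1 fell in all 3 lines, by 1.25 in INA-6 and by 1.05 and 0.85 in MM.1S and MM.1R. CANX, the membrane-bound lectin chaperone, did not pass on the probe set that stands for it (-0.76, with 5266 and 5123 alone and 3001 and 3117 after coculture), but its 3 other probe sets fell, at -2.51 to -1.12. Of the calls named, some settings ended those of HSPA5 with probe sets averaged, and of DNAJB11 (2 settings), SDF2L1 (3 settings, among them with cocultured replicate 2 left out), PDIA3 (4 settings), PDIA6 (3 settings), SEL1L (3 settings) and HSP90B1 (2 settings).

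The sensor ERN1, which splices XBP1 mRNA, was the member that rose (1.64 ± 0.31, adjusted p = 0.00813), and XBP1 itself stood at -0.39 with 4981 and 5068 alone and 3809 and 3842 after coculture. The call of ERN1 was lost in the fit of the INA-6 arrays by themselves and with scaling to the 75th percentile, and the average over the probe sets of XBP1 stood at 0.13. HERPUD1 and EDEM1, targets of the response, stood at 0.11 and 0.21 in INA-6, at 1.61 and 1.97 in MM.1S and at 1.62 and 1.60 in MM.1R. The number of falls depended on the setting. It was 1 under the replicate block, where 364 of all 15053 genes fell. It was 4 in the fit of the INA-6 arrays by themselves or with median centring (615 and 416 of all genes). With scaling to the 75th percentile it was 15 (1009), and without group weights 17 (1978). The ACTB ratio moved from 5.51 to 32.0 in the same comparison, and in the other lines it moved the opposite way. Its part in the result was not tested.

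**Figure D4:**
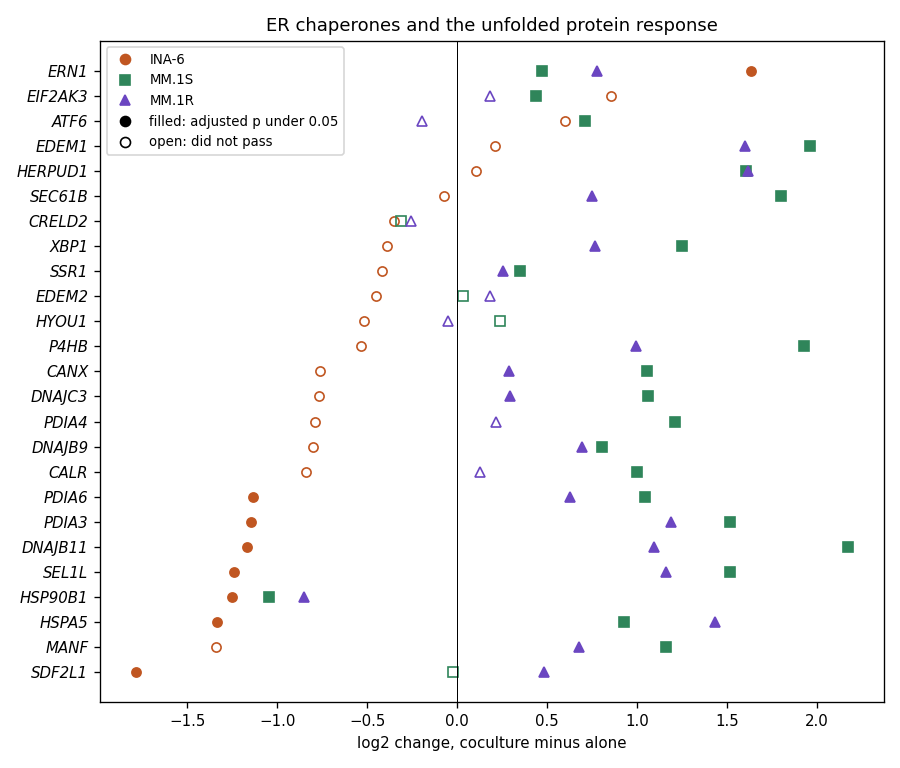
Log2 change (coculture minus alone) of the 25 members of the list of ER chaperones and the unfolded protein response in INA-6 (orange circles), MM.1S (green squares) and MM.1R (purple triangles), filled where the adjusted p was under 0.05. In INA-6, 7 members fell and ERN1 rose, and 20 and 17 members rose in MM.1S and MM.1R.

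Most genes of plasma cell identity did not pass, and a surface and a secreted protein fell. Of 19 members 4 rose (22.5% of all genes did), 2 fell (2.91%) and 13 missed the threshold, and the median of 0.04 turned negative after quantile normalization, with scaling to the 75th percentile and without replicate 1 of INA-6 alone. The surface receptor SLAMF7 read 1512 and 1434 alone and 261 and 276 after coculture (-2.43 ± 0.25, adjusted p = 0.00140), with both cocultured arrays well below both arrays alone. Its other probe sets stood at -2.12, which passed, and -0.85, and in the other lines it read 1118 to 1521 in all 8 arrays. JCHAIN, which joins secreted antibody units, read 7456 and 7402 alone and 3516 and 3469 after coculture (-1.09 ± 0.27, adjusted p = 0.0231). The transcription factors IKZF1 (2.25), MEF2C (2.01) and PRDM1 (1.39) and the ER protein DERL3 (2.05) rose, with 4 of the 8 other probe sets of IKZF1 passing too. The surface antigens SDC1 and TNFRSF17 stood at 0.04 and -0.59, and IRF4 missed the threshold (1.03 ± 0.32, adjusted p = 0.0511). Of 7 immunoglobulin genes JCHAIN alone fell and 0 rose, against 2.91% and 22.5% of all genes. Under alternative settings the call was lost for IKZF1 and DERL3 with probe sets averaged, for MEF2C in the fit of the INA-6 arrays by themselves, and for JCHAIN (3 settings) and PRDM1 (5 settings).

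Genes of MHC class I presentation had lower changes in INA-6 than in the other lines for 9 of 18 members (5.19% of all genes). That count was 5 with the replicate block and 11 without group weights (339 and 2145 of all 15053 genes). Of 18 members 0 rose (22.5% of all genes did) and 2 fell (2.91%) in INA-6. The median of -0.22 turned to 0.13 in the averages over probe sets. The falls were those of PDIA3 and the peptide trimming enzyme ERAP1 (-0.87 ± 0.24, adjusted p = 0.0341). Neither passed in the fit of the INA-6 arrays by themselves, with median centring or with the replicate block. In MM.1S and MM.1R 15 and 13 rose (33.0% and 27.6% of all genes did). HLA-B read 3394 and 4120.4 alone and 2691 and 2768 after coculture (-0.45, not passing), against 2.26 and 1.25, a difference of -2.21 ± 0.29 (adjusted p = 0.00342). HLA-C and B2M, the light chain, differed by -1.63 and -1.11. The HLA heavy chains are close in sequence, so their probe sets may read each other. Of 12 MHC class II genes 1 rose and 0 fell in INA-6 (22.5% and 2.91% of all genes did). The rise was that of CD74, the invariant chain (15.6 and 18.0 to 102 and 106), with its other probe sets at -1.87 and -0.68. Not every call held, since it was lost for CD74 with probe sets averaged, and for ERAP1 (6 settings, among them with either cocultured array left out). The difference from the other lines was lost for B2M (4 settings).

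Genes of the ribosome, the respiratory chain and the proteasome had few calls in INA-6, where 22.5% of all genes rose and 2.91% fell. Of 52 cytosolic ribosomal proteins 0 rose and 0 fell in INA-6 by limma (at an unadjusted p under 0.05, 0 were higher and 1 was lower), with a median of 0.06 that turned to -0.63 with scaling to the 75th percentile. In MM.1S 51 rose and in MM.1R 29, where 33.0% and 27.6% of all genes did. The change was lower in INA-6 than the mean of the other lines for 18 of 52 (5.19% of all genes), as for RPL30 (6459 and 7239.9 alone and 4977 and 5199 after coculture, difference -2.38 ± 0.29, adjusted p = 0.00278). That count was 4 after quantile normalization and 38 with scaling to the 75th percentile, where 823 and 1390 of all 15053 genes had lower differences. Of 45 subunits of the respiratory chain 2 rose in INA-6 (22.5% of all genes did), SDHA (2.08) and UQCRC2 (1.60), while 43 rose in MM.1S (33.0%) and 30 in MM.1R (27.6%). In INA-6 the count was 0 with the replicate block and 13 without group weights, where 2244 and 5882 of all 15053 genes rose. The difference passed as lower for 14 of 45 (5.19% of all genes), such as COX5A (-1.68). That count was 2 with the replicate block and 27 without group weights (339 and 2145 of all genes). Of 28 proteasome subunits 1 fell, PSMD12 (-2.03, with another probe set at 2.08), and 0 rose. The alternatives ended the call of PSMD12 with probe sets averaged, and of SDHA (2 settings) and UQCRC2 (3 settings).

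The remaining lists are set beside the shares over all genes, of which 22.5% rose and 2.91% fell. The counts moved with the setting. With scaling to the 75th percentile 1619 of all 15053 genes rose. There 5 rose in the ATF4 list and 1 each in the MYC, cholesterol and adhesion lists. Without group weights, where 5882 genes rose, these counts were 13, 7, 4 and 5. With probe sets averaged 0 rose in the cholesterol list (3182 of all genes did). At an unadjusted p under 0.05, the 15 lists with 0 falls by limma had between 0 and 2 falls. In the ATF4 response 7 of 29 rose and 0 fell (median 0.39, turning to -0.30 with scaling to the 75th percentile), led by the mTOR inhibitor DDIT4 (346 and 222 alone and 3819.7 and 3745 after coculture) and the factor CEBPG (3.32). Of the same 29 genes 25 rose in MM.1S and 23 in MM.1R, where 33.0% and 27.6% of all genes did. Of 26 genes of MYC and ribosome biogenesis 3 rose and 3 fell. The transferrin receptor TFRC fell from 7095 and 7822 to 1767 and 1683 (-2.11 ± 0.28, adjusted p = 0.00267) and the ribosome assembly factor UTP20 from 1194 and 1285 to 103 and 116 (-3.45 ± 0.37, adjusted p = 0.00154), while MYC stood at -0.20. Of 21 genes of cholesterol synthesis 2 rose, SREBF1 (3.50) and LSS (1.06), and 3 fell, SREBF2 (-3.01), MSMO1 (-1.39) and DHCR7 (-1.17), with other probe sets of SREBF2 at 0.93 and 2.64. Of 26 adhesion and homing genes 4 rose, among them CD99 (3.25) and the chemokine receptor CXCR4 (1.07), and 2 fell, the integrin chain ITGB7 (427 and 366 alone and 127 and 129.5 after coculture, -1.59 ± 0.27, adjusted p = 0.00556) and the receptor CXCR3 (-1.58). Of 14 Notch genes 2 rose, HEY2 (3.58) and DTX3 (2.39). Of 9 B cell markers 2 rose, BCL6 (27.1 and 32.6 to 431 and 368) and SPIB (1.56). Both counts lie below the share of rises over all genes. Of 6 tested markers of other cell types the keratin KRT18 rose (2.38), and HBB, a globin chain, and CD3E, a T cell receptor subunit, fell, HBB from 2411 and 3580.5 to 612 and 636 (-2.23 ± 0.46, adjusted p = 0.0112). Of the calls named, some settings ended those of TFRC, SREBF1, SREBF2 and DTX3 with probe sets averaged, of KRT18 with the replicate block, and of LSS (6 settings), MSMO1 (2 settings), DHCR7 (6 settings, among them with cocultured replicate 1 left out), CXCR4 (10 settings, among them with either cocultured array left out), CXCR3 (3 settings), HEY2 (5 settings, among them with either cocultured array left out), BCL6 (2 settings), SPIB (4 settings, among them with cocultured replicate 1 left out) and CD3E (6 settings, among them with either cocultured array left out).

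The 12 largest falls were of genes that read from 237 to 6356 in the arrays alone and from 1 to 152 after coculture. NOTUM, an enzyme that inactivates Wnt ligands, read 4016 and 6356 alone and 6.85 and 2.76 after coculture, a fall by 9.04 on the log2 scale (SE 0.82, adjusted p = 0.00106). LINC03024, a noncoding transcript, read 1210.0 and 1973 alone and 1 and 1 after coculture (-8.01 ± 0.26, adjusted p = 3.70e-05), and in MM.1S and MM.1R it stood at the floor of 1 in all 8 arrays. Arrays at the floor show no spread. Its small SE and low p therefore draw on the spread of the 2 arrays of INA-6 alone only and are not comparable with those of other genes. MFSD6L, a membrane transporter family gene, read 4798 and 1689 alone and 2.42 and 2.89 after coculture (-8.54 ± 1.27, adjusted p = 0.00352), and GPRIN1, a partner of G proteins, 2013 and 4872 alone and 10.7 and 21.0 after coculture (-7.28 ± 1.06, adjusted p = 0.00326). No array alone overlapped with a cocultured array in these genes, as at all 438 falls. MFSD6L and GPRIN1 were also high in MM.1S alone, at 612 and 179 and at 348 and 519, and near the floor there after coculture. Further falls were those of ERC2-IT1 (-5.77), CIROZ (-5.60) and CLRN1 (-5.59), the natriuretic peptide receptor NPR1 (-5.58), the connexin GJA4 (-4.65), the tRNA modification factor ELP6 (-4.52), the hedgehog inhibitor HHIP (-4.51) and NUFIP1 (-4.50). Of these 12 genes 7 had no other tested probe set, and ELP6 was the only one of the 12 with another probe set that also fell (-4.11, with a further one at 1.47). After coculture NUFIP1 still read 135 and 152, ELP6 94.7 and 132, GJA4 62.8 and 75.2 and HHIP 50.5 and 54.2, above the array median. Under alternative settings the call was lost for NUFIP1 with probe sets averaged, and for CLRN1 (2 settings) and GJA4 (4 settings, among them with either cocultured array left out).

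Probe sets of the same gene often differed. Of 275 falls with another tested probe set of the gene, another also fell in 55 (20%), and had the opposite sign in 198 (72.0%). Of 2173 such rises, another also rose in 885 (40.7%), and had the opposite sign in 943 (43.4%). Another probe set passed in the opposite direction for 98 of the falls and 83 of the rises. The share of falls with a probe set of the opposite sign was 58.4% in MM.1S and 51.8% in MM.1R. The differences between these shares were not tested.

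Among falls with another probe set falling too, the centrosome gene RTTN read 1536 and 403 alone and 51.0 and 66.3 after coculture (-3.65 ± 0.83, adjusted p = 0.0164) with the other at -3.61. The chromatin protein SMCHD1 read 2849 and 2256 alone and 212 and 220.1 after coculture (-3.52 ± 0.31) with 2 others falling, although its 5 others ran from -3.14 to 2.06. SDAD1, a ribosome assembly factor, read 3994 and 4541 alone and 433 and 462 after coculture (-3.24 ± 0.29) with both others negative. RNA45SN5, the ribosomal RNA precursor, read 2417 and 3276 alone and 544 and 555 after coculture (-2.35 ± 0.44, adjusted p = 0.00770), with the other at -2.70. The centrosome genes CEP57 (-2.91) and CSPP1 (-2.46) each had 1 other probe set falling and others up to 2.77 and 2.31. Not every call held, since it was lost for CEP57 and CSPP1 with probe sets averaged. With probe sets of a gene averaged, the sign of the change turned for CEP57 and, among genes named above, for ERAP1, CD74, PSMD12, LSS, SREBF2 and DTX3, which had passed, and for B2M, CCN1, COL1A1, COX5A, EGR1, IGKC, TAGLN and XBP1, which had not.

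The change in INA-6 was set against the mean change of MM.1S and MM.1R by a contrast in the same limma fit. It was higher for 2344 genes (15.6%) and lower for 782 (5.19%). Of the 3388 rises in INA-6, 1336 (39.4%) also rose in both other lines and 244 (7.20%) fell in both. Of the 438 falls, 170 (38.8%) also fell in both and 55 (12.6%) rose in both. Across all genes the changes of INA-6 correlated at 0.39 with those of MM.1S and at 0.33 with those of MM.1R, while those of MM.1S and MM.1R correlated at 0.77. The lines share no control array.

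The highest positive differences were of genes that were low in INA-6 alone. TRMT13, a tRNA methyltransferase, read 13.2 and 9.78 alone and 222 and 244 after coculture in INA-6 and fell in MM.1S, from 230.3 and 219.6 to 69.5 and 81.8, with a difference of 5.29 ± 0.44 (adjusted p = 0.00167). ZNF292, a zinc finger protein, read 89.2 and 7.45 alone and 1101 and 1041 after coculture in INA-6 and 669 to 888 in the other lines in every array, with a difference of 5.02 ± 0.62 (adjusted p = 0.00287). The translation regulator GIGYF1 (5.26), the endosome adaptor RAB11FIP3 (5.07), SRGAP2 (5.04) and the receptor FLT1 (5.01) followed. In these 6 genes both INA-6 arrays alone lay below all 8 arrays of the other lines. All 4 other probe sets of FLT1 had the opposite sign, at -2.92 to -0.84, and the average over its probe sets turned the sign of its change. The lowest differences, beside NOTUM (-8.40), LINC03024 (-8.01), CIROZ (-5.49) and CLRN1 (-5.32), were those of TIMP1 and of RPL39L, a ribosomal protein paralog, which read 29.4 and 245 alone and 8.22 and 2.08 after coculture in INA-6 without passing and rose in the other lines (-5.60, adjusted p = 0.0265). The difference was lost for SRGAP2 with probe sets averaged, for RPL39L with a constant of 1, and for CLRN1 with a constant of 1, probe sets averaged, the block, and without replicate 2 of the cocultured arrays.

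**Figure D5:**
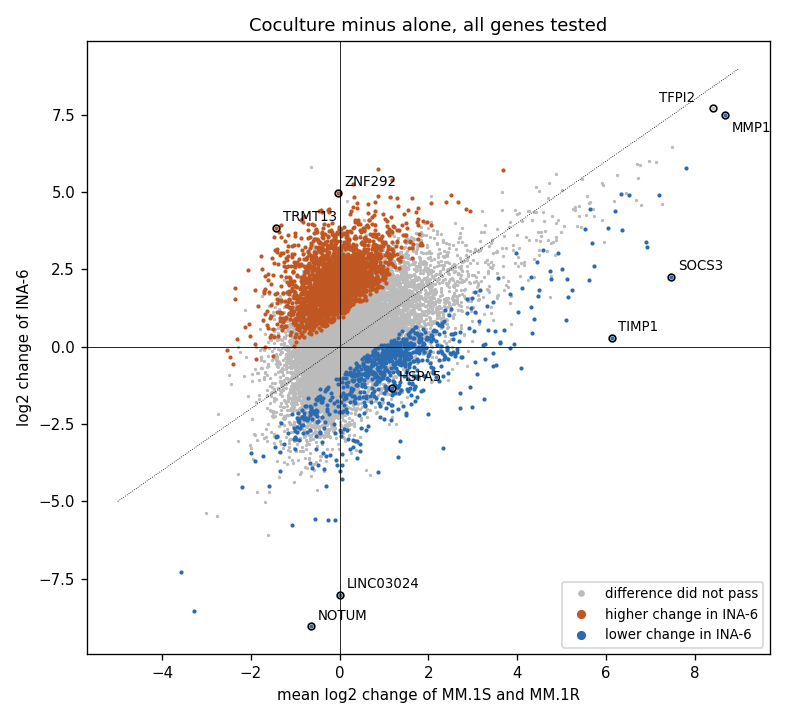
Log2 change of INA-6 after coculture against the mean log2 change of MM.1S and MM.1R for each of the 15053 genes tested, orange where the INA-6 change was higher (2344) and blue where it was lower (782), grey where the difference did not pass, with the dotted line of equal change. TFPI2 lies near that line, TIMP1 and SOCS3 far below it, and NOTUM and LINC03024 fall in INA-6 with mean changes near 0 in the other lines.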

How the data were processed

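The data are 12 Affymetrix arrays (U133 Plus 2.0 design), 2 for each of 6 groups. The deposited intensity values are linear signals per probe set, made by the authors with MAS5 per the submitters' processing notes, while the series' design text names dChip and an averaging of duplicates. Which of these made the values is not settled, and no software version is stated in the labels. The values carry a floor of 1, reached by 3.02% to 3.63% of probe sets per array.

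Members and gene lists were chosen with earlier results of these data known. Values were used as deposited, as log2(value + 5). Probe sets naming 1 gene and above their array's median in at least 2 arrays were kept, 28053 in all, and each of 15053 genes was represented by its kept probe set with the highest mean log2 value. Probe sets that name several genes (1801) or none (11720), and 62 control probe sets, were left out of the tests. limma 3.58.1 in R 4.3.3 fitted 1 mean per group to all 12 arrays, with array weights estimated per group (0.0805 for INA-6 alone and 2.29 for INA-6 after coculture), and Benjamini-Hochberg adjustment at 0.05 (two-sided moderated test). The difference between lines was the INA-6 change minus the mean of the other lines' changes. The scripts were tested on simulated data.

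Named genes were the 12 largest rises and falls, the 8 largest of each with a second probe set passing the same way, the 2 largest changes of each list in each direction, the 6 highest and lowest differences between lines, and the cell type markers. The largest rises and falls were drawn from calls whose INA-6 groups did not overlap, which held for all 3388 rises and 438 falls. Alternatives changed the weights, the arrays fitted, the constant added, the scaling, the filter, the probe set summary and a replicate block, and left out each INA-6 array. The number of arrays limits the precision. Promoter windows came from RefSeq on GRCh38.p14. They were searched on both strands, and the metal motif and the promoters shown were chosen after values were seen. Windows of SOCS3 and PIM1 (STAT motif), BAG3 and DNAJB1 (heat shock motif) and CCL20 (NF-kB motif) were searched too and held 0 matches. A window of NFKB2 held 1 match to the NF-kB motif, and its other windows held 0.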

Additional observations from a re-analysis of the deposited data

Results flagged for a closer look

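For 12 genes the change in INA-6 differed from the mean change of MM.1S and MM.1R, by the test of that difference in the limma fit, and these are the 6 highest and 6 lowest differences. The INA-6 change was higher by 5.29 on the log2 scale for TRMT13, by 5.26 for GIGYF1, by 5.07 for RAB11FIP3, by 5.04 for SRGAP2, by 5.02 for ZNF292 and by 5.01 for FLT1. The difference was -8.40 for NOTUM, -8.01 for LINC03024, -5.83 for TIMP1, -5.60 for RPL39L, -5.49 for CIROZ and -5.32 for CLRN1. The difference was lost for SRGAP2 with probe sets averaged, for RPL39L with a constant of 1 and for CLRN1 under 4 settings, among them with cocultured replicate 2 left out, and the average over probe sets turned that of FLT1. The ACTB 3′ to 5′ ratio and the BioB spike-in differed between the INA-6 groups in the same comparison, and their part in these differences was not tested.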

How the results depend on the processing

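The count of 3388 rises in INA-6 was 5882 without group weights, 1985 after quantile normalization, 1619 with scaling to the 75th percentile (added after seeing the data) and 2244 with the replicate block, and it ranged from 2816 to 7448 when 1 INA-6 array was left out. The 438 falls became 1978 without weights and 1009 with scaling to the 75th percentile, and ranged from 391 to 3237 with an array left out. The 2344 higher differences between lines became 3749 without weights, 1521 with scaling to the 75th percentile and 1243 with the block (1932 to 5956 with an array left out). The 782 lower ones became 2145, 1390 and 339 (654 to 3653). Where an array of INA-6 alone was left out, the lone array was assumed to vary like the other groups. Elsewhere the cause was not tested. Averaging the probe sets of a gene reversed CEP57 (0.0063), ERAP1 (0.15), CD74 (-0.0756), PSMD12 (0.0273), LSS (-0.0911), SREBF2 (0.19), DTX3 (-0.17) and FLT1 (-0.48, with a difference between lines of -0.43), and turned COL1A1 (2.14), TAGLN (0.51) and XBP1 (0.13), which had not passed. Same-numbered arrays did not deviate together in every line (correlation of deviations 0.08 in INA-6, 0.41 in MM.1S and 0.58 in MM.1R), so the numbers were not taken to pair the samples; the block gave 364 falls. Of the 102 genes with a call in INA-6 that the naming rule chose, 59 kept the call under every setting tried and 43 lost it or changed sign under at least 1. Those of genes discussed in the report are given beside them. With 2 arrays in each group and low signals near the floor, small changes of dim genes may have been missed, which was not tested.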
